A study of Homo sapiens with 15 samples.

Results

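The genes described here are 42 matrix glycoproteins, proteoglycans and the enzymes that crosslink them, chosen by a fixed list of gene symbols. All 42 symbols were found among the 25681 symbols of the count tables. By role they were 11 adhesive and matricellular glycoproteins, 11 proteins of microfibrils and elastic fibres, 4 interstitial proteoglycans, 12 basement membrane proteins and 4 crosslinking enzymes.

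The genes were followed in HSSYII, a line of synovial sarcoma cells whose driver is the fusion protein SS18-SSX1, used at fewer than 12 passages, in 5 groups of 3 RNA-seq libraries. In the first experiment cells were kept for 6 hr with 100 nM dBRD9-A or with 0.0001% DMSO, its vehicle. dBRD9-A is a small molecule that brings BRD9, a bromodomain subunit of the SWI/SNF complexes that hold the fusion, to a ubiquitin ligase, so that BRD9 protein is destroyed. In the second experiment cells were infected with lentivirus, tagged with GFP and at a multiplicity of infection of 1.0, that carried hairpin shSS18-SSX1-1 or shSS18-SSX1-2 against the fusion or the control hairpin shRenilla, and were collected at 96 hr with no drug selection. Cells that took up no virus may therefore remain in all 3 hairpin groups. The design asks what loss of BRD9 and loss of the fusion do to expression in the same cells. Whether the 3 libraries of a group were separate cultures is stated neither in the labels nor in the methods. The p-values therefore rest on the spread among these libraries only, and that spread may be technical. In such bulk samples fewer cells of a type and less RNA per cell cannot be told apart.

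The extracellular matrix is the mesh of secreted proteins around cells. Fibronectin and the matricellular glycoproteins link cells to it, fibrillins, fibulins and elastin build elastic microfibrils, and laminins, nidogens and perlecan form the basement membrane on which epithelial cells sit. Lysyl oxidases and transglutaminases bind these proteins to each other covalently. Connective tissue cells such as fibroblasts are the main source of interstitial matrix, while laminins are made by epithelial and many mesenchymal cells, and some synovial sarcomas are biphasic, with gland-like epithelial areas among spindle cells.

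Total counts were 22584741 to 24710719 with dBRD9-A (median 23356874), 20761839 to 23230008 with DMSO (median 22382782), and 18580419 to 27031647 over the 9 hairpin libraries. Values are given as CPM, counts scaled to the library total with TMM factors shared by all 15 libraries. The targeted fusion has no row of its own, and the SSX1 row averaged 20.1 ± 1.22 CPM in shSS18-SSX1-1 cells and 28.7 ± 0.737 CPM in shSS18-SSX1-2 cells, against 63.6 ± 11.8 CPM with shRenilla (SD, n = 3 each). shRenilla replicate 1 stood apart from both other shRenilla libraries, with a chi-square per degree of freedom of 36.5 and 27.0 over genes, where no other pair of replicates was above 9.85. All 8 synovial sarcoma markers of the list were above 0 in every group, with sums of 1109 to 1157 CPM with dBRD9-A, 1154 to 1165 CPM with DMSO and 752 to 889 CPM over the hairpin libraries. The summed CPM of 8 leukocyte markers was at most 6.97 in any library. The sum of 8 endothelial markers was 1.09 to 1.70 with dBRD9-A, 1.44 to 1.80 with DMSO, 2.83 to 4.27 with shSS18-SSX1-1, 5.20 to 8.01 with shSS18-SSX1-2 and 4.22 to 6.98 with shRenilla. Of these CDH5 and KDR were at 0 in all groups, CLDN5 was lower with knockdown (log2 fold change -0.73, edgeR adjusted p = 0.0175), TEK had 13 to 43 counts per hairpin library against 0 with shRenilla (edgeR adjusted p = 5.6e-06), and VWF had 1 to 7 counts per hairpin library against 0. TEK passed the filter on low counts only through the libraries with hairpins against the fusion and had to differ, so its p-value is no support.

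Knockdown of SS18-SSX1 raised most of the matrix genes that were measured, and the largest rises were those of genes that were close to silent with shRenilla. TGM2, a transglutaminase, MFAP5, a microfibril protein, and THBS1, a matricellular thrombospondin, had the highest fitted log2 fold changes of the set, at ranks 4, 7 and 15 of the 14269 genes tested. Of the 42 genes 34 were tested, and 26 of them were higher and 1 was lower at an adjusted p under 0.05 (edgeR's quasi-likelihood test with Benjamini-Hochberg adjustment over all genes). The background over all genes was 22.5% higher and 22.1% lower. With a fold above 1.5 as well, 24 were higher and 1 lower, against backgrounds of 12.5% and 5.9%. The median log2 fold change was 0.95 over the 34 genes and -0.01 over all genes tested. Of the 34 genes, 5 passed the filter on low counts through the hairpin libraries alone (THBS1, FBLN2, FBLN5, MFAP5 and TGM2), so these had to differ and their part in the counts is no support. The ranks and p-values of these 5 with knockdown are no support either. Of the other 29 genes, 21 were higher and 1 lower. The other 8 genes were not tested (THBS2, THBS4, POSTN, TNC, TNXB, MGP, LUM and DCN). Each of the 26 higher genes was also called higher with each hairpin on its own, in tests that share the shRenilla libraries.

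**Figure D1:**
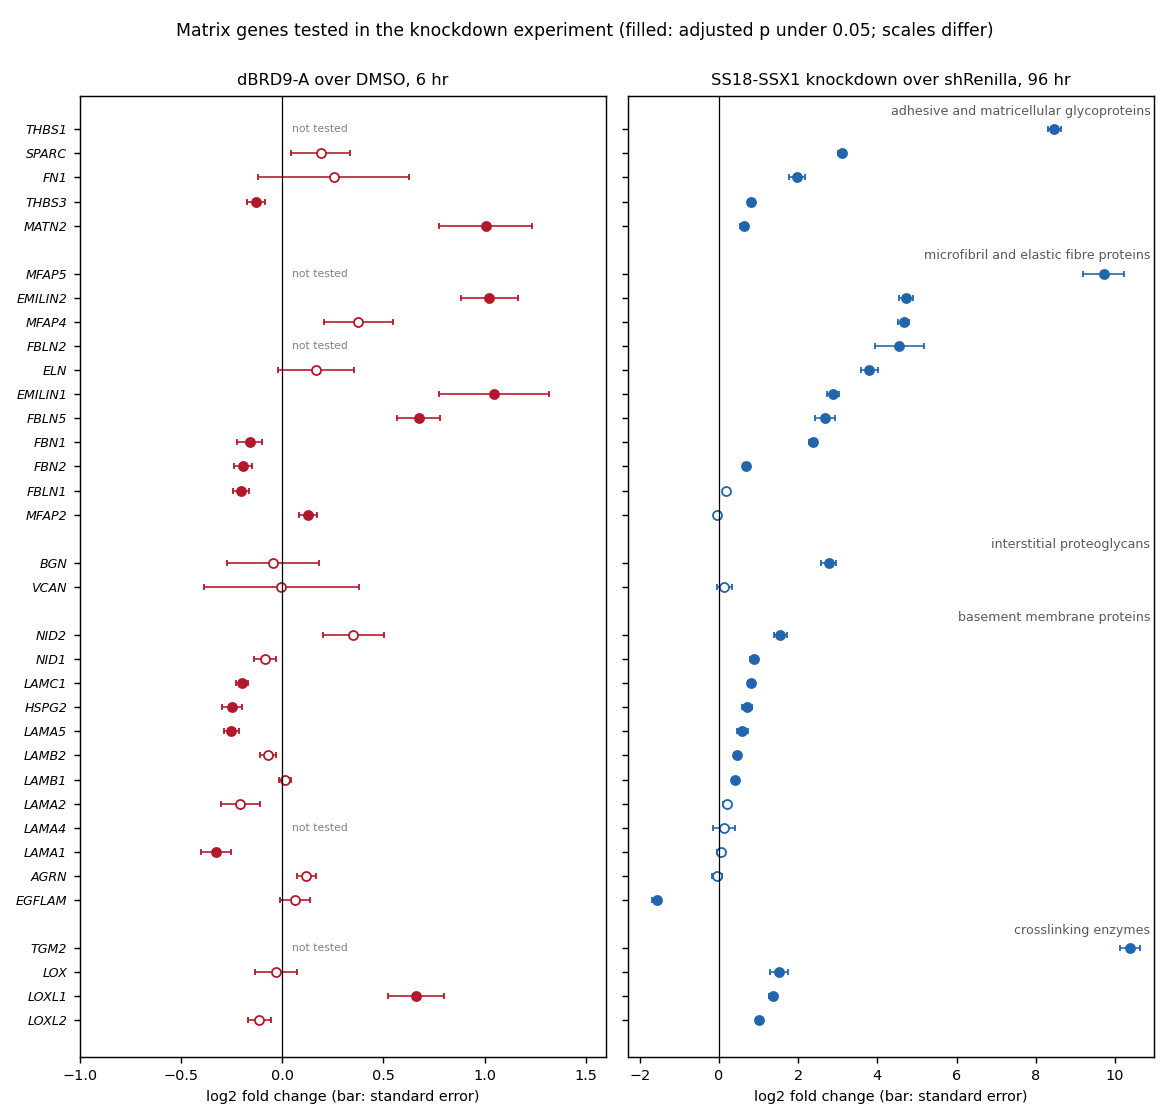
Log2 fold changes (horizontal axis, with standard errors) of the 34 matrix genes tested in the knockdown experiment, by role, with dBRD9-A over DMSO at 6 hr on the left and SS18-SSX1 knockdown (mean of both hairpins) over shRenilla at 96 hr on the right. Filled points passed an adjusted p under 0.05, and the axes have different scales: on the right 26 filled points lie above 0 and 1, EGFLAM, below it, while on the left no point is beyond the 1.05 of EMILIN1.

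Of 11 adhesive and matricellular glycoproteins 5 were tested with knockdown, and all 5 rose (background 22.5% higher). Of these THBS1 passed the filter on low counts only through the hairpin libraries and had to differ. Its part in this count and its p-value are therefore no support. THBS1 (thrombospondin 1, chr15:39873280-39891667 on the plus strand of GRCh37) binds cell surfaces and activates latent TGF-beta. It had 87.4, 78.7 and 84.1 CPM with shSS18-SSX1-1 and 97.4, 99.8 and 93.4 CPM with shSS18-SSX1-2, against 0.151, 0.179 and 0.435 CPM with shRenilla. No hairpin library came near a control library, and the log2 fold change was 8.47 (standard error 0.17, edgeR adjusted p = 3.02e-13). Behind the shRenilla values lie 4, 4 and 9 counts, so the size of the fold is set by few reads. SPARC, a collagen-binding matricellular protein (chr5:151040657-151066536, minus strand), is singled out here after its values were seen. It had 202, 193 and 225 CPM with shSS18-SSX1-1 and 257, 314 and 238 CPM with shSS18-SSX1-2, against 25.5, 27.0 and 29.1 CPM with shRenilla. The groups were well apart, with a log2 fold change of 3.10 (standard error 0.11, edgeR adjusted p = 6.05e-11).

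Fibronectin (FN1), the main adhesive glycoprotein of connective tissue, was a low transcript in these cells. FN1 averaged 3.19 ± 0.623 CPM in shSS18-SSX1-1 cells and 6.10 ± 0.417 CPM in shSS18-SSX1-2 cells, against 1.12 ± 0.345 CPM with shRenilla (SD, n = 3 each), with a log2 fold change of 1.97. THBS3, a thrombospondin known from cartilage and bone, started from a high level. It had 80.2, 84.6 and 83.2 CPM with shSS18-SSX1-1 and 72.1, 73.4 and 75.8 CPM with shSS18-SSX1-2, against 46.7, 40.6 and 44.7 CPM with shRenilla (log2 fold change 0.81, standard error 0.07, edgeR adjusted p = 4.41e-07). The THBS3 groups did not overlap, but an exon of it overlaps MTX1 on the opposite strand. MATN2, a matrilin that links matrix filaments, had 19.0, 18.0 and 20.5 CPM with shSS18-SSX1-1 and 22.7, 26.2 and 24.1 CPM with shSS18-SSX1-2, against 14.3, 13.5 and 13.9 CPM with shRenilla. Its rise was the smallest of the 5 (0.62, standard error 0.08, edgeR adjusted p = 4.07e-05), with no overlap of the groups.

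The rest of this role was close to absent in all groups. THBS2, TNXB and MGP, which encode thrombospondin 2, tenascin X and a vascular calcification inhibitor, had 0 counts in all 15 libraries. POSTN (periostin) had 1 count over the dBRD9-A libraries, 4 over both hairpin groups and 0 with DMSO and shRenilla, and TNC (tenascin C) and THBS4 also stayed at 10 counts or fewer in every library. A library with 0 counts allows up to 3 counts at this depth, and 1 count was worth 0.0377 to 0.0540 CPM.

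**Figure D2:**
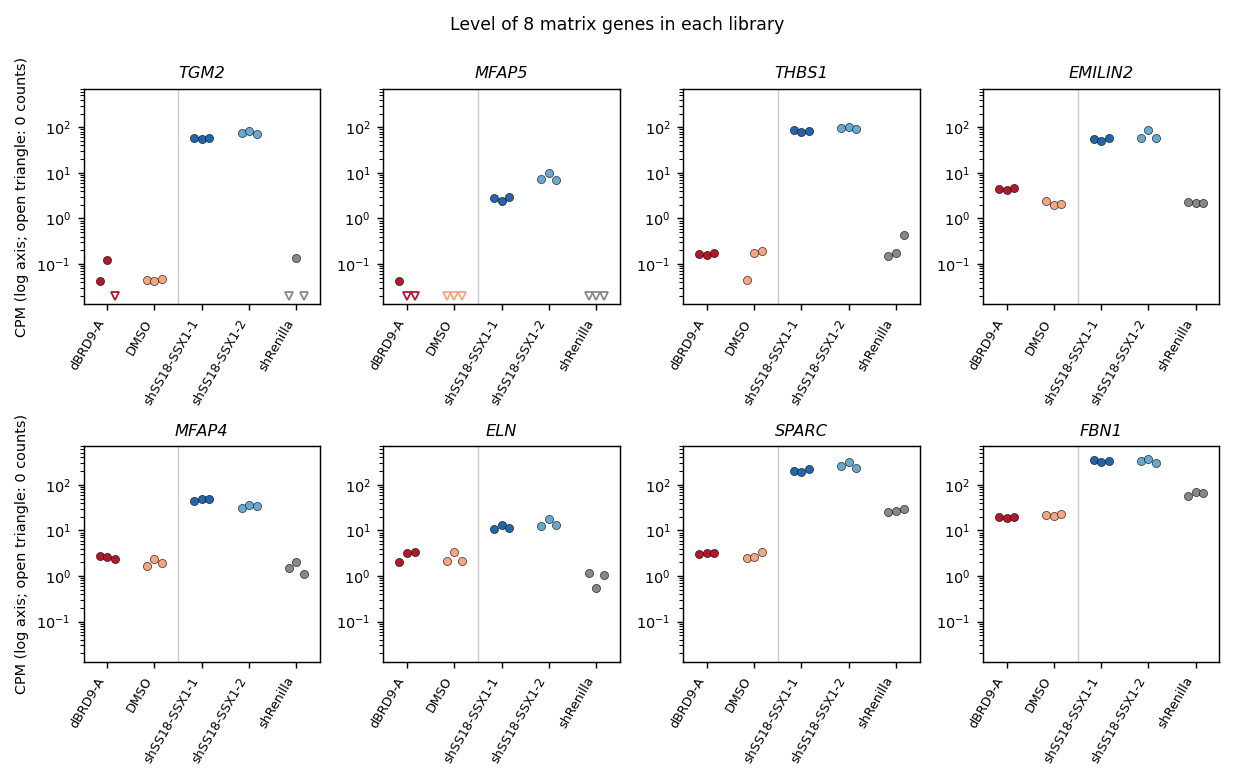
CPM on a log axis in each of the 15 libraries (points) for TGM2, MFAP5, THBS1, EMILIN2, MFAP4, ELN, SPARC and FBN1, in the groups dBRD9-A, DMSO, shSS18-SSX1-1, shSS18-SSX1-2 and shRenilla. Open triangles are libraries with 0 counts, and in all 8 genes every library of both hairpins lies above every shRenilla library, while with dBRD9-A EMILIN2 was called higher and FBN1 lower than with DMSO.

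All 11 microfibril and elastic fibre proteins were tested with knockdown and 9 rose, among them 6 of the 8 that passed the filter on low counts with shRenilla alone. The background was 22.5% higher. MFAP5 (MAGP-2, chr12:8789942-8815484, minus strand) is a small glycoprotein that binds fibrillins. It had 2.85, 2.38 and 2.997 CPM with shSS18-SSX1-1 and 7.27, 9.73 and 6.98 CPM with shSS18-SSX1-2, against 0 CPM in all 3 shRenilla libraries. The reads were 723 over the 6 hairpin libraries against 0, at least 127-fold higher when set against 3 counts over the shRenilla group (edgeR adjusted p = 2.78e-08). MFAP5 passed the filter only through the hairpin libraries and had to differ, so this p-value is no support. EMILIN2, an elastin-associated glycoprotein (chr18:2847004-2916001, plus strand), had 55.2, 50.2 and 57.3 CPM with shSS18-SSX1-1 and 57.6, 87.1 and 57.4 CPM with shSS18-SSX1-2, against 2.30, 2.24 and 2.23 CPM with shRenilla. The change was 4.72 on the log2 scale (standard error 0.18, edgeR adjusted p = 1.32e-10), with shSS18-SSX1-2 replicate 2 above the other hairpin libraries.

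MFAP4, a fibrinogen-related protein that binds elastin and collagen, had 45.1, 48.1 and 49.6 CPM with shSS18-SSX1-1 and 31.4, 35.6 and 33.6 CPM with shSS18-SSX1-2, against 1.51, 2.02 and 1.11 CPM with shRenilla (4.66, standard error 0.14, edgeR adjusted p = 1.41e-11). ELN, tropoelastin itself, had 11.01, 13.0 and 11.3 CPM with shSS18-SSX1-1 and 12.7, 18.0 and 13.3 CPM with shSS18-SSX1-2, against 1.17, 0.538 and 1.06 CPM with shRenilla. ELN rose by 3.795 (standard error 0.21, edgeR adjusted p = 6.05e-09), in the same libraries as these proteins that bind it. EMILIN1, which anchors elastic fibres to cells, had 6.66, 8.21 and 7.59 CPM with shSS18-SSX1-1 and 6.04, 6.14 and 6.62 CPM with shSS18-SSX1-2, against 0.981, 0.852 and 0.919 CPM with shRenilla (2.87, standard error 0.15, edgeR adjusted p = 2.89e-09). FBLN5, a fibulin needed for elastic fibre assembly in mice, had 2.81, 2.43 and 3.12 CPM with shSS18-SSX1-1 and 3.45, 3.86 and 2.82 CPM with shSS18-SSX1-2, against 0.679, 0.404 and 0.290 CPM with shRenilla, with a log2 fold change of 2.68. FBLN2, another fibulin, stayed low at 65 counts over the 6 hairpin libraries against 1 count over shRenilla, a ratio of 34.3 (95% counting interval 5.93 to 1373, exact, counting error only).

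The fibrillins, which are the backbone of microfibrils, rose unequally. FBN1 (chr15:48700510-48937918, minus strand) had 352, 321 and 327 CPM with shSS18-SSX1-1 and 342, 366 and 301 CPM with shSS18-SSX1-2, against 55.5, 70.5 and 65.7 CPM with shRenilla. FBN2, the fibrillin of fetal tissues (chr5:127593601-127994878, minus strand), had 292, 272 and 251 CPM with shSS18-SSX1-1 and 239.9, 219.6 and 221 CPM with shSS18-SSX1-2, against 133, 160.4 and 167 CPM with shRenilla. FBN1 rose by 2.38 (standard error 0.09, edgeR adjusted p = 2.31e-10) and FBN2 by 0.68 (standard error 0.08, edgeR adjusted p = 1.03e-05), with no overlap of the groups for either. The order of the pair turned: FBN1 made up 53.6% ± 1.32 of fibrillin CPM per kb of transcript with shSS18-SSX1-1 and 58.2% ± 2.60 with shSS18-SSX1-2, against 28.2% ± 1.09 with shRenilla (SD, n = 3 each). FBLN1 and MFAP2 did not pass the test with knockdown. FBLN1, a fibulin of basement membranes and elastic fibres, had 90.9, 100.3 and 85.9 CPM with shSS18-SSX1-1 and 104, 93.4 and 106 CPM with shSS18-SSX1-2, against 92.1, 78.9 and 84.1 CPM with shRenilla. The FBLN1 log2 fold change was 0.17 (edgeR adjusted p = 0.092), and without shRenilla replicate 1 it was 0.25 and passed (0.0146), as it did with upper-quartile scaling (0.048), in a range of 0.0146 to 0.209 over all alternatives. MFAP2, the microfibril protein MAGP-1, had 36.7, 38.0 and 34.1 CPM with shSS18-SSX1-1 and 40.5, 36.9 and 39.2 CPM with shSS18-SSX1-2, against 36.2, 36.4 and 42.3 CPM with shRenilla, groups that overlapped throughout.

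**Figure D3:**
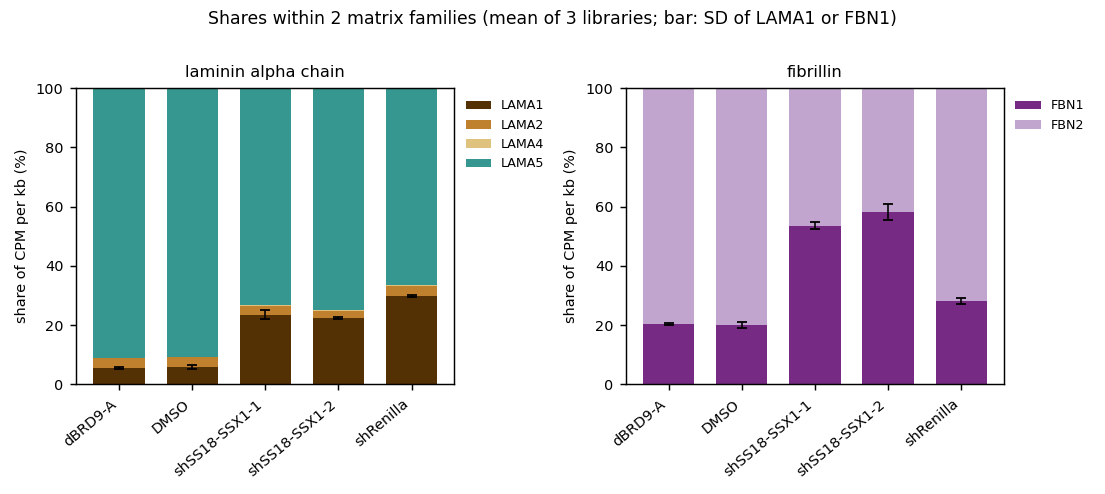
Share of summed CPM per kb of transcript (%) taken by each laminin alpha chain gene and each fibrillin gene in the 5 groups, as the mean of 3 libraries, with SD bars for LAMA1 and FBN1. FBN1 takes over 50% of fibrillin RNA with both hairpins, against 28.2% with shRenilla, and LAMA5 is the largest share of laminin alpha chain RNA in every group.

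Among the interstitial proteoglycans only BGN and VCAN were measurable, and BGN rose. BGN, biglycan, a small leucine-rich proteoglycan that binds collagen, averaged 9.18 ± 0.0682 CPM in shSS18-SSX1-1 cells and 10.92 ± 0.653 CPM in shSS18-SSX1-2 cells, against 1.43 ± 0.632 CPM with shRenilla (SD, n = 3 each), with a log2 fold change of 2.77. VCAN, versican, a large hyaluronan-binding proteoglycan, averaged 1.51 ± 0.290 CPM in shSS18-SSX1-1 cells and 1.80 ± 0.436 CPM in shSS18-SSX1-2 cells, against 1.503 ± 0.0836 CPM with shRenilla (SD, n = 3 each), and did not pass the test (log2 fold change 0.13). LUM and DCN, lumican and decorin, which are abundant in fibroblasts, had 9 and 4 counts over the 6 hairpin libraries and 0 with shRenilla. Expression of LUM and DCN was therefore near the limit of detection in every group.

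All 12 basement membrane genes were tested with knockdown, 7 rose and 1 fell, and the median log2 fold change was 0.43. The background was 22.5% higher and 22.1% lower. LAMC1, the gamma chain shared by most laminins (chr1:182992555-183114727, plus strand), had 673, 603 and 588 CPM with shSS18-SSX1-1 and 659, 665 and 624 CPM with shSS18-SSX1-2, against 315, 371 and 394 CPM with shRenilla (0.80, standard error 0.08, edgeR adjusted p = 1.73e-06). The LAMC1 groups did not overlap. LAMA5, the alpha chain of the laminins of epithelial basement membranes, had 404, 444 and 303 CPM with shSS18-SSX1-1 and 461, 336 and 445 CPM with shSS18-SSX1-2, against 249.8, 224 and 312 CPM with shRenilla. Its rise of 0.59 (standard error 0.14, edgeR adjusted p = 0.0028) came with groups that overlapped, since shSS18-SSX1-1 replicate 3 was below shRenilla replicate 3. HSPG2, perlecan, a heparan sulphate proteoglycan, had 112, 119 and 79.8 CPM with shSS18-SSX1-1 and 108, 85.7 and 99.9 CPM with shSS18-SSX1-2, against 57.2, 55.0 and 72.3 CPM with shRenilla, a log2 fold change of 0.70 with no overlap (standard error 0.13, edgeR adjusted p = 0.000528).

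The nidogens, which bridge laminin and type IV collagen, both rose. NID1 averaged 319.5 ± 16.4 CPM in shSS18-SSX1-1 cells and 301 ± 2.91 CPM in shSS18-SSX1-2 cells, against 168 ± 29.6 CPM with shRenilla (0.87), and NID2 averaged 14.6 ± 1.497 CPM in shSS18-SSX1-1 cells and 20.8 ± 2.31 CPM in shSS18-SSX1-2 cells, against 5.93 ± 1.88 CPM with shRenilla (1.55; SD, n = 3 each). The laminin beta chains LAMB1 and LAMB2 rose by 0.41 and 0.45 on the log2 scale, under 1.5-fold. LAMA1, LAMA2, LAMA4 and AGRN (agrin, which clusters receptors at the nerve-muscle synapse) did not pass the test. LAMA1, the alpha chain of early embryonic laminin, had 113, 108 and 88.4 CPM with shSS18-SSX1-1 and 114, 87.6 and 110.3 CPM with shSS18-SSX1-2, against 95.5, 85.9 and 115 CPM with shRenilla. Its libraries overlapped fully, with a log2 fold change of 0.05. By CPM per kb, LAMA5 took 73.2% ± 1.96 of laminin alpha chain RNA with shSS18-SSX1-1 and 75.0% ± 0.798 with shSS18-SSX1-2, against 66.6% ± 0.993 with shRenilla (SD, n = 3 each). LAMA1 took 23.5% ± 1.59 with shSS18-SSX1-1 and 22.4% ± 0.424 with shSS18-SSX1-2, against 29.9% ± 0.348 with shRenilla.

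EGFLAM (pikachurin, chr5:38258511-38465582, plus strand), a dystroglycan ligand that places photoreceptor synapses in the mouse retina, was the exception that fell. It had 10.1, 11.1 and 8.005 CPM with shSS18-SSX1-1 and 18.4, 14.6 and 20.8 CPM with shSS18-SSX1-2, against 40.3, 37.6 and 38.4 CPM with shRenilla. Neither hairpin group overlapped the controls, and the log2 fold change was -1.57 (standard error 0.11, edgeR adjusted p = 6.38e-08). EGFLAM ranked 81 from the bottom of the 14269 genes tested.

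All 4 crosslinking enzymes rose with knockdown (background 22.5% higher). Of these TGM2 passed the filter on low counts only through the hairpin libraries and had to differ. The part of TGM2 in this count and its p-value are therefore no support. TGM2, tissue transglutaminase (chr20:36755787-36794980, minus strand), which joins glutamine and lysine side chains and also binds fibronectin, had 59.3, 56.2 and 57.5 CPM with shSS18-SSX1-1 and 75.0, 81.9 and 70.1 CPM with shSS18-SSX1-2, against 0, 0.135 and 0 CPM with shRenilla. The controls held 3 reads in all, in replicate 2, against 8845 reads over the 6 hairpin libraries, a ratio of 1554 (95% counting interval 531 to 7535, exact, counting error only; edgeR adjusted p = 2.84e-12). LOXL1, the lysyl oxidase that crosslinks tropoelastin in mice, had 38.6, 40.4 and 36.5 CPM with shSS18-SSX1-1 and 40.1, 35.5 and 43.3 CPM with shSS18-SSX1-2, against 14.98, 12.7 and 17.0 CPM with shRenilla. LOXL1 rose by 1.37 with no overlap (standard error 0.10, edgeR adjusted p = 1.07e-07). LOX, the founding lysyl oxidase, averaged 2.35 ± 0.308 CPM in shSS18-SSX1-1 cells and 2.02 ± 0.346 CPM in shSS18-SSX1-2 cells, against 0.770 ± 0.249 CPM with shRenilla (1.51). LOXL2, which acts on type IV collagen, averaged 95.4 ± 4.80 CPM in shSS18-SSX1-1 cells and 105 ± 3.57 CPM in shSS18-SSX1-2 cells, against 48.9 ± 5.31 CPM with shRenilla (1.02; SD, n = 3 each).

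Of the 26 higher genes 12 rose by more than 4-fold, and their promoters were set beside the others as a description. The 250 bases upstream of the start site were found for 30 of the 42 genes in RefSeq (GRCh38.p14), among them 7 of these 12 and 12 of the genes that rose by up to 4-fold. On either strand GGAATG, the core letters of sites for TEAD factors, lay in 4 of the 7 promoters (57.1%), in 0 of the 12 and in 11.9% of all 27305 promoters of the same length. Over all members it lay in 6 of 30 promoters (20%), in 4 of 19 of the higher genes (21.1%) and in 2 of the 11 others (18.2%). These 2 were LAMA2, which gave no call, and THBS2, which held 2 matches and had 0 counts in every library. The split at 4-fold was chosen with the fold changes known. Among the 7, THBS1, FBLN2 and FBLN5 passed the filter on low counts only through the hairpin libraries. Their folds, and so their side of the split, rest on few shRenilla counts, and the contrast of promoters was not tested. The 4 promoters of higher genes with a match are shown, with GGAATG or its complement CATTCC, and the AP-1 letters TGANTCA, in capitals. They are THBS1 (chr15:39580829-39581078, plus strand), SPARC (chr5:151686916-151687165, minus strand), FBN1 (chr15:48644971-48645220, minus strand) and EMILIN2 (chr18:2846756-2847005, plus strand), each written from 5′ to 3′.
THBS1: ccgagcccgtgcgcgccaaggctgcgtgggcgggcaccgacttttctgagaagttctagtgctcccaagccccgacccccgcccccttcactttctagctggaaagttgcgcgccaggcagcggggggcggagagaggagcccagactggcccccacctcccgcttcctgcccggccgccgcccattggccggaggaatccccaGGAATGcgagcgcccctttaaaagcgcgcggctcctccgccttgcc
SPARC: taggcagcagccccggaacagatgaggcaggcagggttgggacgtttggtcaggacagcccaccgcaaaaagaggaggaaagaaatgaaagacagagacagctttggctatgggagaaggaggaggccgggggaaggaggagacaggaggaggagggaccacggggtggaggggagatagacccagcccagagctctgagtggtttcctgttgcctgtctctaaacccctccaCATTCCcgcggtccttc
FBN1: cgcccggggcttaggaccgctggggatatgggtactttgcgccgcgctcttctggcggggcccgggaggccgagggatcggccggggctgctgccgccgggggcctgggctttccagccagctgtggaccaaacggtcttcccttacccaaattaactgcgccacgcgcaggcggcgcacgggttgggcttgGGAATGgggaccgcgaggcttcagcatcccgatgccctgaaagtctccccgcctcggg
EMILIN2: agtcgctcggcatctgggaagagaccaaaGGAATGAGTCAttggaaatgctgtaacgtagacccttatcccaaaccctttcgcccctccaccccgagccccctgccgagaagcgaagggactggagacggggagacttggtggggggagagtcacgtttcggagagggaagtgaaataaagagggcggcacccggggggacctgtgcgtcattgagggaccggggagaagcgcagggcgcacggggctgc
In EMILIN2 the GGAATG letters run into an AP-1 match and share the letters TG with it. The promoters of FBLN2, FBLN5 and BGN, which also rose by more than 4-fold, held no GGAATG. GC boxes (GGGCGG, either strand) lay in 16 of the 19 promoters of higher genes, 84.2% against 42.3% of all promoters, and the TATA box letters TATAAA in 0 of 19 against 11.1%. Over all 30 member promoters GC boxes lay in 70%. The promoters of higher genes were also richer in G and C, at a median of 70.4% against 58% over all promoters. AP-1 (5.26% against 6.6%), SMAD box GTCTG (36.8% against 37.8%) and E-box CACGTG (5.26% against 6.49%) matches were about as frequent as in all promoters. A match is a stretch of letters and not a measured binding site.

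The hairpins differed from each other at 2 of the 34 genes tested, MFAP5 and EGFLAM, both higher with shSS18-SSX1-2. By edgeR 0 were lower, against 4 lower at an unadjusted p under 0.05 and 1 lower by DESeq2, and the backgrounds were 0.119% higher (17 genes) and 0.028% lower (4 genes). MFAP5 was 1.52 higher on the log2 scale with shSS18-SSX1-2 than with shSS18-SSX1-1 (standard error 0.18, edgeR adjusted p = 0.00549), with no overlap of the values given above. Without shSS18-SSX1-1 replicate 1 the MFAP5 difference just missed the threshold (edgeR adjusted p = 0.0503, in a range of 3.1e-09 to 0.0503 over all alternatives). EGFLAM was 0.86 higher (standard error 0.14, edgeR adjusted p = 0.0356), that is, less reduced with shSS18-SSX1-2. Its call was lost without shRenilla replicate 3 (0.0627), without shSS18-SSX1-1 replicate 1 (0.166), 2 (0.0628) or 3 (0.161) and without shSS18-SSX1-2 replicate 1 (0.176) or 3 (0.114), with edgeR adjusted p from 3.72e-06 to 0.176 over all alternatives. MFAP4 ran the other way, averaging 33.5 ± 2.13 CPM for shSS18-SSX1-2 beside 47.6 ± 2.28 CPM for shSS18-SSX1-1 (SD over 3 libraries), and missed the threshold at -0.53 (edgeR adjusted p = 0.0689). It passed without shRenilla replicate 1 (0.0226) or 2 (0.0217), with DESeq2 (0.000443) and without the filter (0.00928), and the range over all alternatives was 0.000443 to 0.349.

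Markers outside the matrix moved in the same libraries. The summed CPM of 8 epithelial markers was 66.1 to 69.0 with shSS18-SSX1-1 and 136 to 161 with shSS18-SSX1-2, against 0.0484 to 0.642 with shRenilla. Most of this sum was KRT8 and KRT18. KRT5 was at 0, and EPCAM, KRT19 and CLDN7 had at most 5 counts in any hairpin library. All 4 markers tested rose, but they passed the filter only through the hairpin libraries and had to differ. KRT18, a keratin of simple epithelia, averaged 38.2 ± 0.789 CPM in shSS18-SSX1-1 cells and 84.2 ± 7.34 CPM in shSS18-SSX1-2 cells, against 0.159 ± 0.158 CPM with shRenilla (SD, n = 3 each). The sum of 11 fibroblast markers outside the matrix was 353 to 369.9 with shSS18-SSX1-1 and 351 to 359 with shSS18-SSX1-2, against 213 to 222 with shRenilla, and of 8 tested 4 rose and 1 fell. PDGFRB rose by 8.37 and S100A4 by 5.86, both having passed the filter only through the hairpin libraries, CD248 rose by 0.89 and THY1 by 0.73 (edgeR adjusted p = 3.02e-13, 6.52e-08, 2.36e-05 and 5.74e-05). TBX15, a transcription factor, averaged 3.27 ± 0.322 CPM in shSS18-SSX1-1 cells and 3.57 ± 0.315 CPM in shSS18-SSX1-2 cells, against 5.06 ± 0.910 CPM with shRenilla (SD, n = 3 each; log2 fold change -0.59, edgeR adjusted p = 0.00285), and PRRX1, PRRX2 and TWIST2 gave no call. FAP, a protease of activated fibroblasts, had 0 to 2 counts in each hairpin library and 0 with shRenilla. In the other experiment FAP averaged 5.37 ± 0.540 CPM with dBRD9-A and 6.00 ± 0.503 CPM with DMSO (SD, n = 3 each). The sum of 8 skeletal muscle markers was 39.5 to 41.7 with shSS18-SSX1-1 and 34.1 to 43.0 with shSS18-SSX1-2, against 15.7 to 23.6 with shRenilla. TTN and MYH3 made up most of it in every group. Of 5 muscle markers tested 4 rose, but 3 of the 5 passed the filter only through the hairpin libraries. Of the other 2, MYH3 rose by 2.52 (edgeR adjusted p = 7.57e-09) and TTN gave no call. MYOD1, MYOG and MYH8 had at most 1 count in any library. The part of these markers, and of their difference between the hairpins, in the matrix values was not tested.

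After 6 hr of dBRD9-A most of the matrix genes tested moved little and in both directions, while those called past 1.5-fold were all higher. Of 29 genes tested 6 were higher (20.7%) and 8 lower (27.6%) at an edgeR adjusted p under 0.05, against backgrounds of 17.7% higher and 18.2% lower over all genes, so the share of higher calls was near that of all genes. With a fold above 1.5 as well, 5 of 29 were higher (17.2%, against a background of 2.23%), and each of the 8 lower genes fell by less (background 0.593%). The 5 were EMILIN1, EMILIN2, MATN2, FBLN5 and LOXL1. The median log2 fold change was -0.01 over the 29 genes and 0.01 over all genes. The other 13 genes were not tested, among them THBS1, MFAP5 and TGM2, and FN1 and VCAN passed the filter only through the dBRD9-A libraries.

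Of the 6 higher genes 4 belonged to microfibrils and elastic fibres (EMILIN1, EMILIN2, FBLN5 and MFAP2), of 9 tested in that role. Another 3 of these 9 were lower (FBN1, FBN2 and FBLN1). The role was thus 44.4% higher and 33.3% lower, against backgrounds of 17.7% and 18.2%. EMILIN2 had 4.33, 4.12 and 4.66 CPM with dBRD9-A, against 2.38, 2.01 and 2.07 CPM with DMSO (log2 fold change 1.02, standard error 0.14, edgeR adjusted p = 1.02e-06). EMILIN1 had 1.47, 0.999 and 1.17 CPM with dBRD9-A, against 0.494, 0.728 and 0.529 CPM with DMSO (1.05, standard error 0.27, edgeR adjusted p = 0.00318). FBLN5 had 7.07, 7.35 and 6.96 CPM with dBRD9-A, against 4.27, 4.20 and 5.05 CPM with DMSO (0.67, standard error 0.11, edgeR adjusted p = 9.57e-06). For EMILIN1, EMILIN2 and FBLN5 the groups did not overlap. MATN2 had 1.68, 1.84 and 1.35 CPM with dBRD9-A, against 0.719, 0.899 and 0.817 CPM with DMSO (1.01, standard error 0.23, edgeR adjusted p = 0.000924). LOXL1 had 4.04, 4.59 and 4.22 CPM with dBRD9-A, against 2.38, 2.95 and 2.84 CPM with DMSO (0.66, standard error 0.14, edgeR adjusted p = 0.000288). MATN2 and LOXL1 did not overlap either, all 5 were under 10 CPM in both groups, and EMILIN1 and MATN2 rested on 11 to 46 counts per library. MFAP2 had 57.4, 59.7 and 53.7 CPM with dBRD9-A, against 51.2, 54.0 and 52.0 CPM with DMSO, with overlap and a log2 fold change of 0.13 (edgeR adjusted p = 0.0297). The MFAP2 call was lost with DESeq2 (0.095), without dBRD9-A replicate 1 (0.0936) or 2 (0.234), without DMSO replicate 1 (0.0813) or 3 (0.127) and with the dBRD9-A libraries moved by -0.2 on the log2 scale, where its sign turned (-0.073, 0.167), and its adjusted p ranged from 0.0113 to 0.234 over all alternatives.

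Of the 8 lower genes 4 belonged to the basement membrane, of 11 tested in that role, and each of the 8 fell by under 1.5-fold. The role was 36.4% lower and 0% higher, against backgrounds of 18.2% and 17.7%. LAMA5 had 238, 226 and 232 CPM with dBRD9-A, against 257, 293 and 283 CPM with DMSO (-0.25, standard error 0.04, edgeR adjusted p = 2.61e-06). LAMC1 had 341, 340.4 and 348 CPM with dBRD9-A, against 409, 388 and 391 CPM with DMSO (-0.20, standard error 0.03, edgeR adjusted p = 1.84e-06). HSPG2 had 38.6, 38.2 and 40.5 CPM with dBRD9-A, against 45.6, 44.6 and 49.8 CPM with DMSO (-0.25, standard error 0.05, edgeR adjusted p = 0.000231). None of these 3 groups overlapped, and the common coefficient of variation between replicates was 2.78% in this experiment. LAMA1 had 11.6, 11.6 and 12.7 CPM with dBRD9-A, against 15.4, 14.5 and 15.3 CPM with DMSO (-0.33, standard error 0.07, edgeR adjusted p = 0.000722). FBLN1 had 97.5, 96.4 and 98.2 CPM with dBRD9-A, against 107, 117 and 114 CPM with DMSO (-0.20, standard error 0.04, edgeR adjusted p = 0.000119). The LAMA1 and FBLN1 groups did not overlap either.

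Both fibrillins and THBS3 completed the lower genes. FBN2 had 71.9, 67.4 and 75.6 CPM with dBRD9-A, against 86.8, 79.2 and 80.6 CPM with DMSO (-0.19, standard error 0.04, edgeR adjusted p = 0.000894). FBN1 had 19.7, 18.5 and 20.2 CPM with dBRD9-A, against 21.7, 21.0 and 22.9 CPM with DMSO (-0.16, edgeR adjusted p = 0.0435), and THBS3 had 49.2, 47.6 and 49.2 CPM with dBRD9-A, against 52.9, 55.1 and 52.5 CPM with DMSO (-0.13, edgeR adjusted p = 0.0211). The FBN1 call was lost without dBRD9-A replicate 1 (0.0799) or 2 (0.210) and without DMSO replicate 3 (0.148), and also with DESeq2 (0.119), total-count scaling (0.0681), upper-quartile scaling (0.0724) and transcripts summed per gene (0.0729), 7 of 16 alternatives with a range of 8.47e-06 to 0.210 over all alternatives. The THBS3 call was lost without dBRD9-A replicate 2 (0.109) or DMSO replicate 2 (0.0541), with a range of 1.27e-07 to 0.109. The FBN1 share of fibrillin RNA per kb was 20.4% ± 0.246 with dBRD9-A and 20% ± 1.02 with DMSO, and LAMA5 made up 91.1% ± 0.339 of laminin alpha chain RNA with dBRD9-A and 90.9% ± 0.882 with DMSO (SD, n = 3 each). A fall common to every gene is invisible after TMM scaling, and the tables hold no spike-in counts. With the dBRD9-A libraries moved by -0.2 on the log2 scale, 5 members were higher and 13 lower.

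Several of the genes with the largest knockdown rises gave no call with dBRD9-A. SPARC averaged 3.16 ± 0.0793 CPM with dBRD9-A and 2.80 ± 0.449 CPM with DMSO (SD, n = 3 each), and its log2 fold change was 0.19 (edgeR adjusted p = 0.334). ELN had 2.02, 3.12 and 3.44 CPM with dBRD9-A, against 2.11, 3.38 and 2.12 CPM with DMSO, with full overlap. MFAP4 had 2.69, 2.56 and 2.39 CPM with dBRD9-A, against 1.62, 2.35 and 1.92 CPM with DMSO (0.38, edgeR adjusted p = 0.0833), and it passed when DMSO replicate 2 was left out (edgeR adjusted p = 0.0276, in a range of 0.0276 to 0.377 over all alternatives). THBS1 had 4, 4 and 4 counts with dBRD9-A, against 1, 4 and 4 counts with DMSO, and TGM2 had 1, 3 and 0 counts with dBRD9-A, against 1, 1 and 1 count with DMSO. Both stayed close to the limit of detection at 6 hr. MFAP5 had 1 count over the dBRD9-A libraries and 0 with DMSO.

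**Figure D4:**
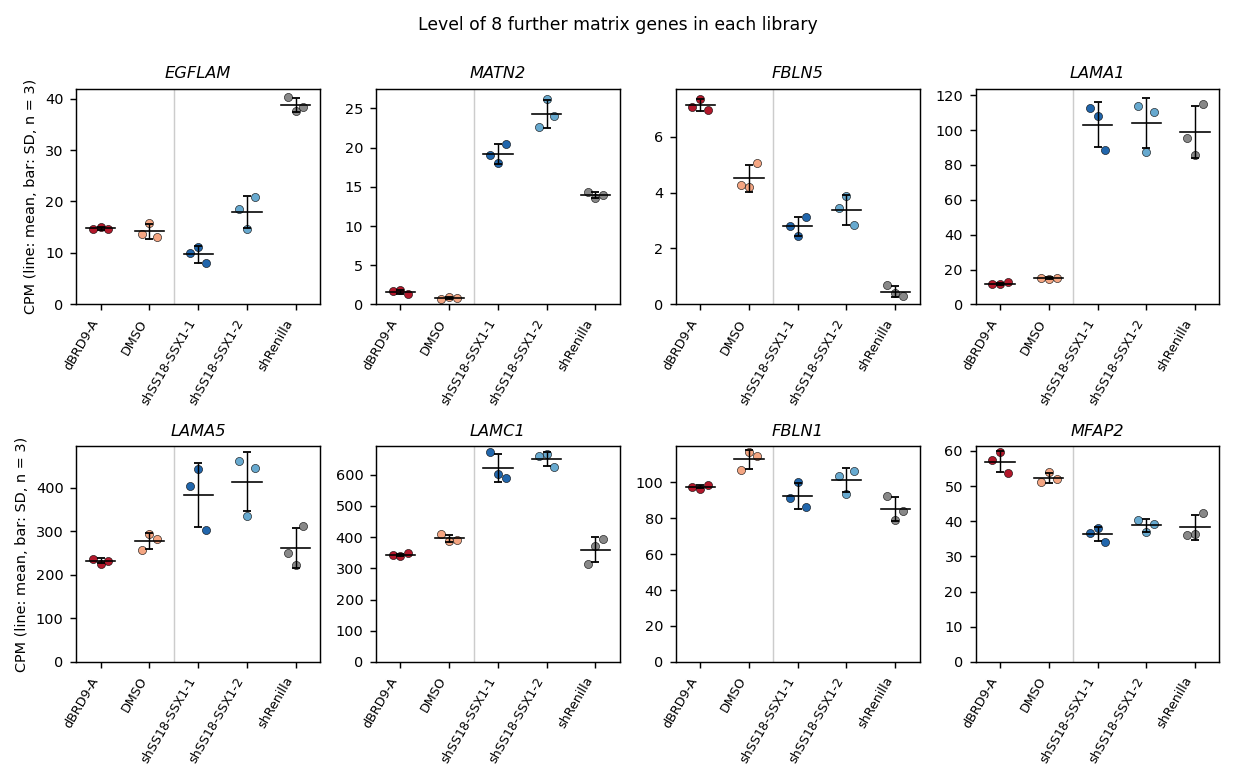
CPM in each of the 15 libraries (points; line, mean; bar, SD, n = 3) for EGFLAM, MATN2, FBLN5, LAMA1, LAMA5, LAMC1, FBLN1 and MFAP2, with axes that start at 0. EGFLAM is lower with both hairpins than with shRenilla and LAMA5 and LAMC1 are lower with dBRD9-A than with DMSO, while MATN2, LAMA1 and FBLN5 show how far apart the shRenilla and DMSO controls lie.

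Set side by side, MATN2, FBLN5, EMILIN1, EMILIN2 and LOXL1 were called higher in both experiments. The knockdown call of FBLN5 is no support, since FBLN5 passed that filter only through the hairpin libraries. THBS3, FBN1, FBN2, LAMA5, LAMC1 and HSPG2 were lower with dBRD9-A and higher with knockdown, the dBRD9-A calls of FBN1 and THBS3 within the limits given above. A fit over all 15 libraries compared the effects directly. In it the dBRD9-A effect was lower than the knockdown effect for 25 of 34 genes and higher for 1, against backgrounds of 19% and 17.5%. THBS1, FBLN2, MFAP5 and TGM2 passed the filter of this fit only through the hairpin libraries, where they are high. Their part in this count is therefore no support. For FBN1 the difference was -2.56 on the log2 scale (standard error 0.12, edgeR adjusted p = 4.03e-11), for LAMC1 -1.03 (standard error 0.10, edgeR adjusted p = 1.55e-07) and for EMILIN2 -3.72 (standard error 0.28, edgeR adjusted p = 1.39e-08). EGFLAM was the gene with a higher dBRD9-A effect (1.62, standard error 0.16, edgeR adjusted p = 2.37e-07), having 14.6, 15.1 and 14.7 CPM with dBRD9-A, against 13.7, 15.8 and 13.1 CPM with DMSO. For MATN2 the difference of the effects missed the threshold (0.36, standard error 0.21, edgeR adjusted p = 0.227). The experiments differ in time and in the use of virus, which cannot be told apart from the agent.

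The controls themselves differed for many of these genes. In 9 of the 34 genes every shRenilla library was more than 2-fold above every DMSO library (EGFLAM, FBN1, LAMA1, LAMA4, LOXL1, MATN2, NID1, SPARC and VCAN), against a background of 3.85%, and in FBLN5 and LOX every shRenilla library was more than 2-fold below (background 2.51%). MATN2 averaged 13.9 ± 0.381 CPM with shRenilla and 0.812 ± 0.0904 CPM with DMSO, and LAMA1 averaged 98.8 ± 14.8 CPM with shRenilla and 15.1 ± 0.509 CPM with DMSO (SD, n = 3 each). LAMA1 held 29.9% of laminin alpha chain RNA per kb with shRenilla and 5.86% with DMSO. FBLN5 was the reverse, at 0.458 ± 0.200 CPM with shRenilla and 4.503 ± 0.473 CPM with DMSO, so that its level after knockdown was still below that of DMSO cells. The same held for LOX, at a mean of 0.770 CPM with shRenilla, 2.35 and 2.02 with shSS18-SSX1-1 and shSS18-SSX1-2, and 5.75 with DMSO. EGFLAM averaged 38.8 CPM with shRenilla and 14.2 with DMSO, which lies between 9.73 with shSS18-SSX1-1 and 17.9 with shSS18-SSX1-2. Lentivirus, time in culture and vehicle cannot be told apart here.

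By level per kb of transcript, LAMC1 was the highest of the 42 genes with both hairpins (78.3 CPM per kb with shSS18-SSX1-1 and 81.9 with shSS18-SSX1-2). SPARC ranked 3 among the 42 with shSS18-SSX1-1 (59.9 CPM per kb) and 2 with shSS18-SSX1-2 (78.1 CPM per kb), against 14 with shRenilla (7.88 CPM per kb). MFAP2 was highest with dBRD9-A (54.5 CPM per kb) and with DMSO (50.1 CPM per kb), ahead of LAMC1 at 43.3 with dBRD9-A and 49.96 with DMSO, and SPARC ranked 20 with dBRD9-A and 21 with DMSO. RNA for LAMC1 and MAGP-1 was thus abundant in these cells, beside the interstitial proteoglycans LUM and DCN near the limit of detection. Laminin chains were not all abundant, since LAMA4 averaged 0.0106 CPM per kb with DMSO and 0.0970 with shSS18-SSX1-1.

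Other genes of the matrix were taken from lists made for comparison. Of 31 other matricellular and adhesive genes 16 were tested, 15 rose, among them MATN4 (matrilin 4, 5.71 on the log2 scale), TGFBI (an integrin-binding protein, 5.53) and SRPX (4.23). Of 17 other microfibril genes 14 were tested, 10 rose, led by LTBP1, which tethers latent TGF-beta to microfibrils (6.60), LTBP2 (3.43) and EMILIN3 (2.24). This list also holds FBLIM1, which encodes an intracellular adaptor. Of 23 other basement membrane genes 12 were tested, 6 rose and 2 fell, with the type IV collagen chains COL4A2 (5.82) and COL4A1 (5.68) and TINAGL1 (5.99) the largest. Of 23 other proteoglycan and link protein genes 9 were tested, 6 rose and 1 fell, with OGN (osteoglycin, 6.48), ACAN (aggrecan, 5.33) and HAPLN3 (5.04) the largest. Of the genes tested, 6 matricellular, 1 microfibril, 6 basement membrane and 6 proteoglycan genes passed the filter only through the hairpin libraries and had to differ. Most of the basement membrane and proteoglycan genes that rose, and most of those named above, were among them. Without them 9 of 10 other matricellular genes rose, 9 of 13 microfibril genes rose, 1 of 6 basement membrane genes rose and 2 fell, and 1 of 3 proteoglycan genes rose and 1 fell. The background for these counts is the 22.5% higher and 22.1% lower given above.

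Receptors and modifying enzymes were counted in the same way. Of 12 matrix receptors outside the integrins 11 were tested with knockdown, 10 rose and 1 fell, among them DDR1, a collagen receptor (1.87), and LAYN, a hyaluronan receptor (2.35). Of 13 cell surface proteoglycans 11 were tested, 7 rose and 1 fell, with CD44, the main hyaluronan receptor (7.49), and SDC2, syndecan 2 (3.87), the largest. Of 35 glycosaminoglycan and crosslinking enzymes 29 were tested, 17 rose and 1 fell, led by XYLT1, which starts glycosaminoglycan chains (3.67), and LOXL4 (2.54). Of the genes that passed the filter with shRenilla alone, 9 of 10 receptors rose and 1 fell, 6 of 10 cell surface proteoglycans rose and 1 fell, and 16 of 28 enzymes rose and 1 fell. With dBRD9-A, where the background was 17.7% higher and 18.2% lower, the lists gave 4 higher of 11 other matricellular genes (the 4 with an unadjusted p under 0.05, 1 of which passed the filter only through the dBRD9-A libraries), 3 higher and 2 lower of 13 other microfibril genes, 1 and 3 of 7 other basement membrane genes, 3 and 1 of 10 cell surface proteoglycans, 7 and 7 of 27 enzymes and 1 and 2 of 10 receptors. Of 4 other proteoglycan and link protein genes edgeR called 0 with dBRD9-A, and 1 had an unadjusted p under 0.05. SDC2 (1.00, edgeR adjusted p = 0.000464), EMILIN3 (1.10, edgeR adjusted p = 8.35e-09), CTGF, a matricellular growth factor binder (0.65, edgeR adjusted p = 4.06e-10), and CHST15, a chondroitin sulfotransferase (1.07, edgeR adjusted p = 3.28e-09), were among the higher ones.

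Some values are uncertain because the strand setting of the counting is not given in the sources used here. Exons of THBS1, THBS3, FBN2, MFAP4, LAMA5, LAMB1, HSPG2, LOX, LOXL1 and TGM2 overlap genes on the opposite strand, and those of LOXL2 overlap ENTPD4 on the same strand, so reads of these pairs may be shared.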

How the data were processed

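RNA-seq libraries were made from total RNA of HSSYII cells in 5 groups of 3. The authors aligned reads to hg19 (GRCh37) with STAR and counted them per RefSeq transcript with featureCounts, and deposited raw counts, 48104 transcripts in each of 15 tables. The sources used here give neither their versions nor the strand setting. In the deposited table of dBRD9-A replicate 2, 4535 gene symbols were broken (unit other), so transcripts were matched by accession. Of 80 symbols turned into dates or blanks, 2 could not be restored. For each of 25681 symbols the transcript with the highest sum was used. The methods name spike-ins, and the tables held 0 spike-in entries.

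Genes were kept by filterByExpr (minimum count 10), scaled by TMM and tested with edgeR's robust quasi-likelihood F test (edgeR 4.0.16, R 4.3.3), with Benjamini-Hochberg adjustment over all genes tested and a threshold of 0.05. dBRD9-A was fitted with DMSO, the hairpins with shRenilla (knockdown being the mean of both hairpins), and the difference of the effects over all 15 libraries. The fits were tested on simulated data. CPM were computed on the TMM scale of all 15 libraries. Intervals and limits cover counting error only, and no molecular identifiers are named in the methods.

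Values in every library were given for genes at a group mean of 5 CPM or more that were among the 6 called higher or the 6 called lower with the largest fold changes in the dBRD9-A or the knockdown comparison, that were called in both with opposite signs or between the hairpins, and for genes with a group at 0. Of other lists, up to 3 called genes were named. The members and the lists were chosen with earlier results of these data known. Each result was recomputed with voom (limma 3.58.1), with DESeq2 1.42.0 and its size factors alone, total-count and upper-quartile scaling, no filter and a 1 CPM filter in 3 libraries, transcripts summed per gene, a 1.5-fold minimum, a shift of the dBRD9-A libraries by -0.2, a replicate block and each library left out in turn. Promoters were read from RefSeq (GRCh38.p14), 250 bases upstream, and gene locations are GRCh37.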

Additional observations from a re-analysis of the deposited data

Results flagged for a closer look

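MFAP5 was higher with shSS18-SSX1-2 than with shSS18-SSX1-1 by 1.52 on the log2 scale, and EGFLAM by 0.86, so their changes against shRenilla differed between hairpins that target the same fusion (edgeR's quasi-likelihood test). For EGFLAM the change against shRenilla was -1.14 with shSS18-SSX1-2 and -2.01 with shSS18-SSX1-1. The summed CPM of the epithelial markers also differed, at 136 to 161 with shSS18-SSX1-2 and 66.1 to 69.0 with shSS18-SSX1-1. Most of this sum was KRT8 and KRT18, and its part in both differences was not tested.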

How the results depend on the processing

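Of 1492 alternatives for single genes, 1454 kept direction and side of the threshold, 22 lost a call, 15 gained one and 1 turned the sign (MFAP2 with dBRD9-A, -0.073 with the dBRD9-A libraries moved by -0.2). With knockdown 358 of 360 kept both, the exceptions being FBLN1. Members called higher with knockdown numbered 24 to 27 and lower 1 under every alternative. With dBRD9-A the members called lower numbered 0 with the 1.5-fold minimum, 13 with the -0.2 shift and 6 to 9 when 1 library was left out, and those called higher 5 to 8. Between the hairpins the count higher was 4 with DESeq2, 1 with the replicate block and 0 to 3 with 1 library left out, and the count lower was 1 with DESeq2, 1 without the filter and 0 to 1 with 1 library left out. The dBRD9-A effect was lower than the knockdown effect for 23 to 26 genes with 1 library left out. THBS1 and TGM2, which passed the filter only through the hairpin libraries, were among them each time. Labels number the replicates 1 to 3 in every group, but correlations of same-numbered libraries ran from -0.275 to 0.221, so the numbers were not taken as pairs. Libraries with different numbers correlated at up to 0.345, but no source pairs them, and no such pairing was fitted. With the replicate block 8 members were higher and 8 lower with dBRD9-A, and the EGFLAM difference between the hairpins had an edgeR adjusted p of 0.0795, which is no sign of a smaller difference. Genes near 0 counts (TGM2, MFAP5, THBS1 and FBLN2 in controls) have folds limited by depth.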
